A study of Mus musculus with 2 samples.

Results

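The 10 genes of a set that encodes transcription factors of naive pluripotency, Nanog, Pou5f1, Klf4, Klf2, Klf5, Esrrb, Tfcp2l1, Tbx3, Zfp42 and Prdm14, were described in newly made and in older RNA of mouse embryonic stem cells. Their members are the transcripts that the GENCODE M21 annotation (GRCm38) calls protein-coding and that have a value in the deposited table, 25 of 49490 such transcripts, and they cover all 10 genes of 21574. Another 3 annotated coding transcripts of these genes, 1 of Klf5 and 2 of Zfp42, had no value in the table. The cells were wild-type male embryonic stem cells of the line DTCM23/49 XY, depleted of the feeder cells they grow on and kept in serum with leukemia inhibitory factor (LIF). They received 200 µM 4-thiouridine (4sU), a uridine analogue that is built into RNA while it is transcribed, for 10 min. RNA carrying 4sU was tagged with biotin and pulled out with streptavidin, and 1 library was made of this labeled RNA and 1 of the RNA left behind, called unlabeled here. One field of the labels calls the second library total RNA and another preexisting RNA, and it was read as unlabeled RNA, as in the study. With 1 library per pool there is no replicate error and no test, and every value below describes these 2 libraries. Both are replicate 1 of their pool, and other replicates were not analysed here.

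Each transcript has an exon value and, where it has introns, an intron value, both relative abundances corrected for length. Exon and intron values of a library add up to a sum 10 times that of TPM values, and this deposited unit is kept below. They compare the make-up of the 2 pools, not amounts of RNA, since each pool was brought to the same total. Intron values made up 15.4% of all labeled signal but 6.26% of all unlabeled signal. Read depth is unknown, so no counting interval can be given. Since RNA of many cells was pooled, fewer cells with a transcript and less of it per cell cannot be told apart.

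Naive pluripotency is the state of the inner cell mass before implantation, and mouse embryonic stem cells hold it in culture as long as LIF signalling is kept up. Nanog, a homeodomain protein, and Pou5f1, the POU-domain protein also called Oct4, belong to the core of the network. Around them stand the Krüppel-like zinc finger factors Klf2, Klf4 and Klf5, the orphan nuclear receptor Esrrb, the CP2-family factor Tfcp2l1 and the T-box factor Tbx3, which share many of the same enhancers, and several of which can stand in for LIF when overexpressed. Zfp42, also called Rex1, is a zinc finger protein used as a marker of the naive state, and Prdm14 is a zinc finger protein that holds back fibroblast growth factor signalling and DNA methylation.

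The markers of the labelled cell type were present. All 8 of 8 embryonic stem cell markers (Sox2, Sall4, Utf1, Dppa5a, Fgf4, Lin28a, Tdgf1 and Zscan10) had exon values above 10 in both libraries, with a sum of 10947 in labeled and 16403 in unlabeled RNA. The 8 fibroblast markers, which would mark feeder cells, summed to 8.72 and 20.9, and 5 of 8 were listed at 0 in unlabeled RNA, among them Col3a1, Pdgfrb, Postn and Lum. The 5 primitive endoderm markers summed to 7.09 and 14.3, with 3 listed at 0 in unlabeled RNA, and the 4 mesendoderm markers to 5.64 and 5.97. The 3 markers of 2-cell-like cells summed to 0.65 and 1.48. The neural list reached 77.7 and 103.6 and the trophectoderm list 92.7 and 147.1, and most of these sums came from Pax6 (68.7 and 70.5) and Tfap2c (91.4 and 146.1).

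A promoter stretch of Nanog and another of Zfp42 are shown because the binding motif of Pou5f1, itself one of the 10 genes, occurs in them. RefSeq promoter windows on GRCm38.p6 were at hand for 7 of the 10 genes. The motif ATGCAAA, the part read by the POU domain, was searched on both strands. The search covered the 250 bases before the start of each window, and 4.12% of 32851 windows held it there. Among the 10 windows of these genes it stood in 3, which are 2 overlapping windows of Nanog, with the same site, and the window of Zfp42. The Nanog site lies 1 base from ACAATG, a motif of Sox proteins that 10.7% of windows held. The Zfp42 site extends to the octamer ATGCAAAT, found in 1.60% of windows, which overlaps the shorter motif by construction, and the window also holds GGGTGTGG, a motif of Krüppel-like factors found in 3.20%. The stretches are the 250 bases before the start, given 5′ to 3′ along the gene, with the motifs in capitals, written as they read on this strand. They lie at chr6:122707239-122707488 on the plus strand for Nanog and at chr8:43307010-43307259 on the minus strand for Zfp42. Of the other motifs searched, AAGGTCA of estrogen-related receptors (4.08% of windows) and ACAAAG of Sox proteins (16.5%) stood in 0 of the 10 windows. The shorter GGGTG of Krüppel-like factors, not put in capitals, stood in 6 (52.0%). TATAAA stood in 1 (12.4%) and TTCNNNGAA of STAT proteins in 1 (7.02%). A match of letters is a description and not evidence of binding.
Nanog: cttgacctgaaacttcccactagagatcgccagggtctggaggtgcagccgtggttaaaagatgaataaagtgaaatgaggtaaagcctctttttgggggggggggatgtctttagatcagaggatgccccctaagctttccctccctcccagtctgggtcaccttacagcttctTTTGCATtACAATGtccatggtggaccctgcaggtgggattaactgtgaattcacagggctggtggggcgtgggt
Zfp42: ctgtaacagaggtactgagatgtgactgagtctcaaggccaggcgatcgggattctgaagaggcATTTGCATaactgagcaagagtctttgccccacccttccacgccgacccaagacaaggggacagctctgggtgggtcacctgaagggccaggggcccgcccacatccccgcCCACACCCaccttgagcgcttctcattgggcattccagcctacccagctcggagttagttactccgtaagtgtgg

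Unless a transcript is named, levels below are sums over the coding transcripts of a gene. Nanog was the most abundant of the 10 in both pools, with an exon value of 1099 in labeled and 2416 in unlabeled RNA, followed by Pou5f1 with 783 and 1198. These core factors stood above at least 95.8% of the 14118 coding genes compared, in both libraries. Prdm14 was the lowest in both, with 20.02 and 26.4. In unlabeled RNA the order between them was Klf5, Esrrb, Klf4, Tfcp2l1, Tbx3, Zfp42 and Klf2, and in labeled RNA it was Esrrb, Klf5, Zfp42, Klf2, Klf4, Tbx3 and Tfcp2l1. With 1 library per pool it cannot be said which neighbours in these orders differ beyond error. Klf5 and Esrrb, 549 and 526 in unlabeled RNA, and Zfp42 and Klf2, 108 and 100.2 in labeled RNA, were the closest neighbours. Zfp42 and Klf2 each stood 3 places higher in the labeled than in the unlabeled order, and Tfcp2l1 stood 3 places lower.

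**Figure D1:**
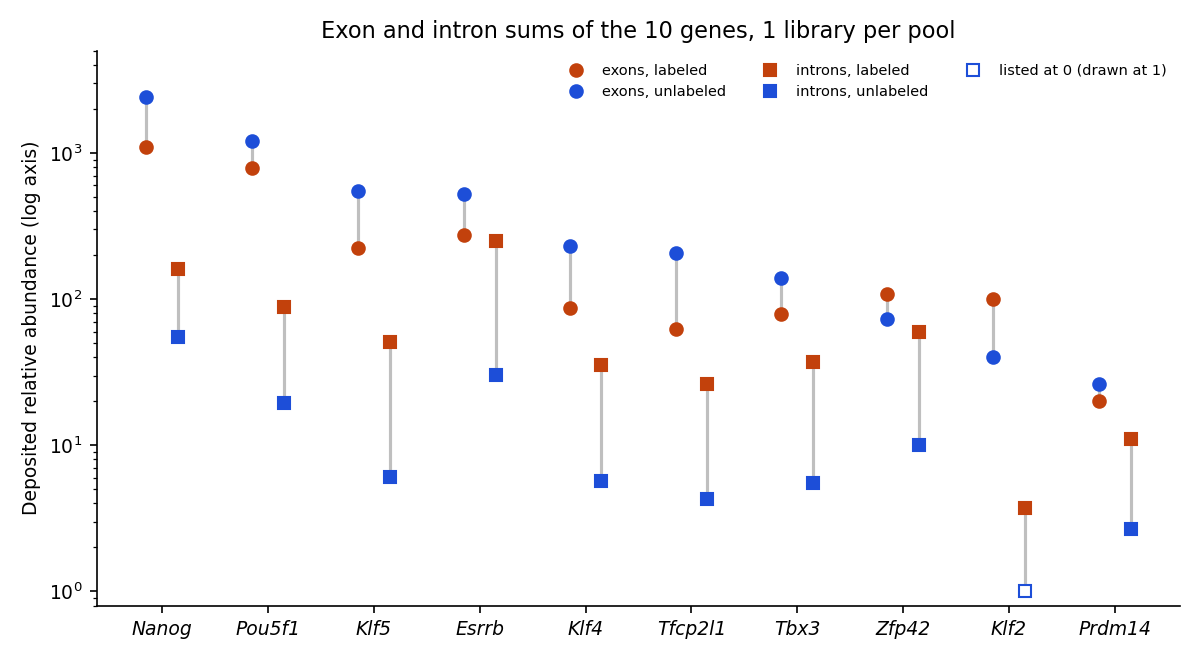
Exon values (circles) and intron values (squares) of the 10 genes in labeled (orange) and unlabeled RNA (blue), each summed over coding transcripts, on a log axis in the deposited unit, with 1 library per pool and no error bars. In 8 genes the labeled exon circle lies below the unlabeled one; in Zfp42 and Klf2 it lies above, and in all 10 the labeled intron square lies above the unlabeled one, which for Klf2 is listed at 0 and drawn open at 1.

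The core factors took a smaller share of labeled than of unlabeled exon RNA. For Nanog the exon value was 2.20-fold lower in labeled than in unlabeled RNA (log2 −1.14), and for Pou5f1 1.53-fold lower (log2 −0.61). The leading transcript of Nanog, the one with the highest mean exon value, is Nanog-202 (ENSMUST00000112580, chromosome 6, 122707565 to 122714633, plus strand, 5 exons), at 388.8 in labeled and 845.9 in unlabeled RNA. The other coding transcripts of Nanog differ from it by little sequence and lay close to it, Nanog-201 at 357.8 and 832.7 and Nanog-203 at 352.8 and 737.2. For all 3 the log2 ratio lay between −1.22 and −1.06.

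The 3 Krüppel-like factors did not move as a group. Klf5-201 (ENSMUST00000005279, chromosome 14, 99298691 to 99315036, plus strand), the single Klf5 transcript in the table, had 223.8 in labeled and 548.7 in unlabeled RNA, 2.45-fold lower in labeled RNA. Klf4 had 87.4 and 232.4, 2.66-fold lower, with its leading transcript Klf4-201 (ENSMUST00000107619, chromosome 4, 55527143 to 55532466, minus strand) at 65.9 and 174.5. Klf2-201 (ENSMUST00000067912, chromosome 8, 72319033 to 72321656, plus strand) went the other way, with 100.2 in labeled and 40.1 in unlabeled RNA. This was 2.5-fold higher in labeled RNA, the highest ratio of the 10 genes, at percentile 87.2 among coding genes.

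Among the other network factors, Tfcp2l1-201 (ENSMUST00000027629, chromosome 1, 118627946 to 118685168, plus strand) had 62.8 in labeled and 206.5 in unlabeled RNA. At 3.29-fold lower in labeled RNA it had the lowest ratio of the 10 over coding transcripts, at percentile 5.91 among coding genes. With a non-coding transcript of the gene, Tfcp2l1-202, included, it was 2.11-fold lower, and Klf4, Klf5 and Nanog had lower ratios. Esrrb had 275.8 and 526.1, 1.91-fold lower in labeled RNA, and Tbx3 had 79.2 and 140.0, 1.77-fold lower. Zfp42-201 (ENSMUST00000082120, chromosome 8, 43295067 to 43306980, minus strand) had 107.8 and 72.9, 1.48-fold higher in labeled RNA, a change under 2-fold. Prdm14-201 (ENSMUST00000047577, chromosome 1, 13113457 to 13127163, minus strand) had 20.02 and 26.4, 1.32-fold lower, which placed it near the middle of all genes, at percentile 44.8. The sign of each gene's log2 exon ratio was the same in all 7 settings, the main one included. Much of this was fixed in advance. Pseudocounts cannot change a sign. Leakage subtraction lowers every ratio, so it could only turn a positive sign. Scalings by the exon rows and by the median gene raise every ratio here, so they could only turn a negative one. Leading transcripts could differ only in genes with more than 1 coding transcript.

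Of the 25 member transcripts, 22 had a lower exon value in labeled RNA, where 62.5% of the 33401 coding transcripts with a mean exon value above 1 and both values above 0 did. The 3 that were higher, against 37.5% of coding transcripts, were Klf2-201, Zfp42-201 and Esrrb-202. In 10 of 25 the exon value was at least 2-fold lower in labeled RNA, against 26.5% of coding transcripts, and in 1, Klf2-201, at least 2-fold higher, against 15%. The 10 were all 3 transcripts of Nanog, all 3 of Klf4, 2 of Esrrb, and those of Klf5 and Tfcp2l1. The median log2 ratio over the 25 was −0.89, and over all coding transcripts −0.38. All 25 passed the minimum on the mean exon value, and their mean exon values ran from 14.1 to 617.3. Among the coding transcripts of that range the median was −0.57, with 30.4% at least 2-fold lower and 8% at least 2-fold higher. The members' median was thus nearer to that of transcripts in this range than to that of all coding transcripts. The range is wide, and levels within it were not matched to those of the members. Relative to the median of all coding transcripts, 3 of the 25 were at least 2-fold lower (14.6% of coding transcripts) and 2, Klf2-201 and Esrrb-202, at least 2-fold higher (21.3%). Transcripts of a gene share exons, so the 25 are not independent, and over genes 8 of 10 were lower in labeled RNA (58.7% of coding genes), with 4 of 10 at least 2-fold lower (22.7% of coding genes) and 1 of 10 higher (17.4%).

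**Figure D2:**
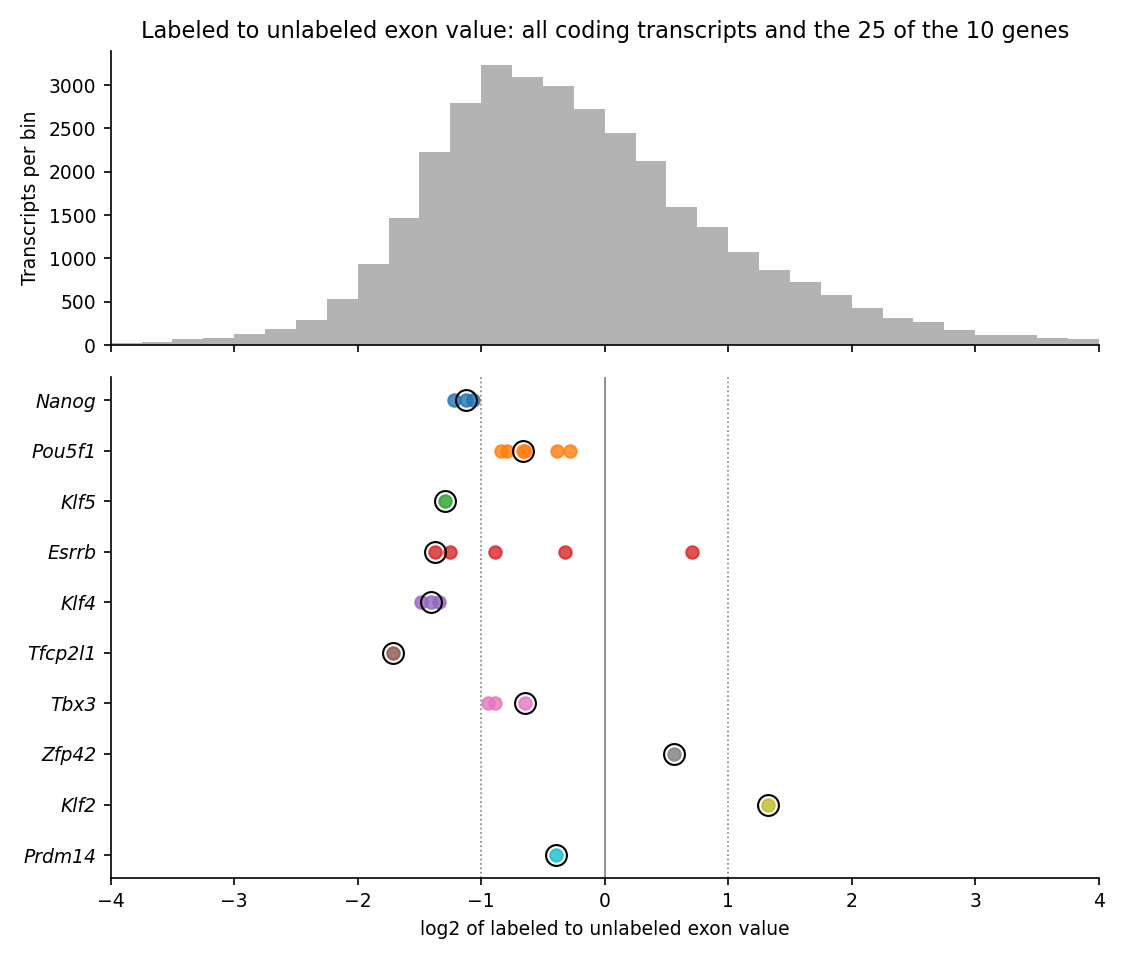
Log2 of the labeled to unlabeled exon value, with dotted lines at 2-fold: the upper panel counts all coding transcripts per bin, and the lower panel shows the 25 transcripts of the 10 genes, the leading transcript of each gene ringed. Nanog, Klf5, Klf4 and Tfcp2l1 lie left of the lower 2-fold line with every transcript, Klf2 lies right of the upper one, and the transcripts of Esrrb spread from −1.38 to 0.71.

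The introns went the other way. Summed over coding transcripts, the intron value of Nanog was 160.9 in labeled and 55.2 in unlabeled RNA, and that of Pou5f1 was 88.8 and 19.4. Esrrb had 248.99 and 30.03, which put it first of the 10 in labeled intron RNA though 2 of the genes had higher exon values there. Intron values of the other 7 genes reached at most 59.3 in labeled RNA, in Zfp42. Labeled intron RNA was higher in all 10, from 2.92-fold in Nanog and 4.16-fold in Prdm14 to 8.29-fold in Esrrb and 8.42-fold in Klf5. For Klf2 no fold can be given, since the introns were at 3.75 in labeled RNA and listed at 0 in unlabeled RNA. Of the 23 transcripts with all 4 values above 0, 22 had an intron value at least 2-fold higher in labeled RNA, against 89% of coding transcripts, a share close to the background. The median log2 ratio was 2.55, a fold of 5.87, and over coding transcripts it was 1.99, a fold of 3.98. The exception was Klf4-203, with 3.42 in labeled and 3.87 in unlabeled RNA. Klf2-201 and Klf4-202 had unlabeled introns listed at 0, as had 4.45% of the coding transcripts with an intron value.

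The intron to exon ratio of a transcript is the observable from which the study infers rates. It is high where RNA was made recently and not yet spliced. In labeled RNA the ratio of the gene sums was lowest in Klf2 at 0.0374 (percentile 1.84 among coding genes) and then in Pou5f1 at 0.113, Nanog at 0.146 and Klf5 at 0.227. Klf4 at 0.407, Tfcp2l1 at 0.417, Tbx3 at 0.471, Zfp42 at 0.550 and Prdm14 at 0.552 lay in the middle, and Esrrb was highest at 0.903. The leading transcript of Esrrb, Esrrb-203, had 0.575, near Prdm14, while Esrrb-206 and Esrrb-201 had 2.57 and 1.69. In unlabeled RNA the order of the genes differed. Klf5 was lowest of the 9 genes with a value at 0.0110, then came Pou5f1 at 0.0162, Tfcp2l1 at 0.0207, Nanog at 0.0228, Klf4 at 0.0244, Tbx3 at 0.0394 and Esrrb at 0.0571. Prdm14 at 0.101 and Zfp42 at 0.139 were the highest. Zfp42 thus paired a labeled ratio near that of Prdm14 with the highest share of intron left in unlabeled RNA, and Klf5 paired a low labeled ratio with the lowest unlabeled one.

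Over the 23 transcripts the median ratio was 0.418 in labeled and 0.0296 in unlabeled RNA, and over all coding transcripts 0.570 and 0.111. Within the level range of the members the medians of coding transcripts were 0.426 and 0.0702. The members' median was thus close to that of this range in labeled RNA and lower in unlabeled RNA. Levels within the range were not matched, and whether the lower unlabeled ratio goes with level was not tested. The model of the study asks for a labeled ratio under 1 and above the unlabeled one, and 21 of the 23 met this, against 66.7% of coding transcripts and 84.5% of those in the same level range. The 2 that did not had labeled ratios of at least 1, as had 28.2% of coding transcripts and 12.4% in the level range, and were isoforms of Esrrb. Esrrb-206 had an exon value of 31.9 and an intron value of 81.8 in labeled RNA, a ratio of 2.57, and Esrrb-201 had 23.7 and 40.0, a ratio of 1.69.

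**Figure D3:**
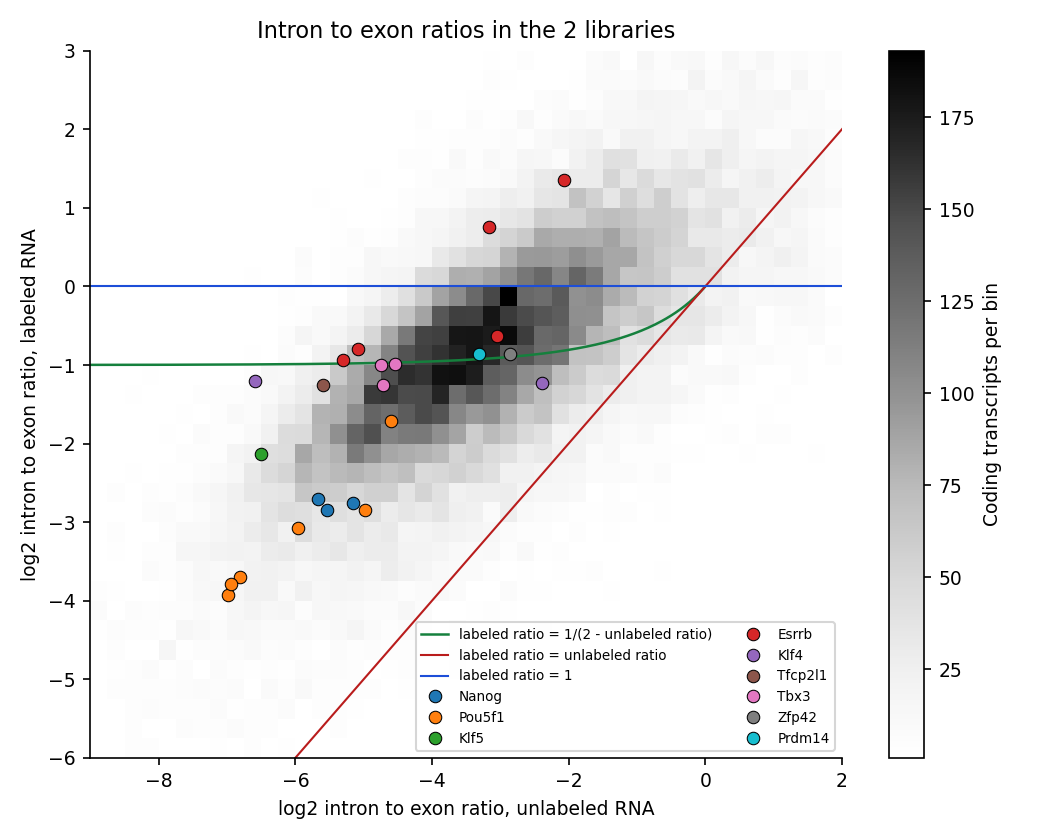
Log2 intron to exon ratio in labeled against unlabeled RNA; grey bins count coding transcripts, colored points are the 23 member transcripts with all values above 0, and lines mark equal ratios (red), a labeled ratio of 1 (blue) and the line above which the model has 1 solution (green). Points of Nanog and Pou5f1 sit at the lower left, those of Klf4, Tbx3 and Tfcp2l1 just under the green line, and 2 of Esrrb above the blue line.

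In the log2 exon ratio the isoforms of Esrrb spread more widely than those of the other genes, while in the log2 intron ratio those of Klf4 did, from −0.18 to 3.99. Esrrb-203 (ENSMUST00000110204, chromosome 12, 86421644 to 86521625, plus strand), the leading transcript of Esrrb, had exon values of 93.9 in labeled and 244.0 in unlabeled RNA. Esrrb-204, which starts further upstream at 86361117, had 68.6 and 163.3. Esrrb-202, which shares the start of Esrrb-203 but ends at 86515522, had 57.8 and 35.4 and so was 1.63-fold higher in labeled RNA, while Esrrb-203 was lower. Their 3′ UTRs differ, with 955 bases in Esrrb-202 and 2560 in Esrrb-203. The labeled intron values of Esrrb transcripts lay between 35.9 in Esrrb-204, with 156212 intron bases, and 81.8 in Esrrb-206, with 47605. These isoforms overlap in the genome, and how reads in the overlap were divided among them was not tested.

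Pou5f1 had 6 coding transcripts in the table, of which 5 are annotated as incomplete at the 3′ end. The leading one, Pou5f1-202 (ENSMUST00000172651, chromosome 17, 35508805 to 35510134, plus strand), is such a fragment of 435 bases, at 161.4 in labeled and 255.6 in unlabeled RNA. The full-length Pou5f1-201 (ENSMUST00000025271, 35506018 to 35510772, 1362 bases in 5 exons) had 164.2 and 199.9, a log2 ratio of −0.28. The labeled intron to exon ratio was 0.0657 in Pou5f1-202, 0.139 in Pou5f1-201 and 0.306 in Pou5f1-205, so the position of Pou5f1 in the ratio plane depends on which model is read. The 3 transcripts of Tbx3 lay close together, at 24.6 to 29.7 in labeled and 46.3 to 47.2 in unlabeled RNA, with Tbx3-201 (ENSMUST00000018748, chromosome 5, 119671018 to 119684724, plus strand) the leading one. Klf4-202 and Klf4-203, also incomplete models, had log2 ratios of −1.49 and −1.34 beside −1.40 for Klf4-201.

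Non-coding transcripts of these genes were not counted as members, but 1 of them stood out. Tfcp2l1-202 (ENSMUST00000190652, chromosome 1, 118627945 to 118637766), a short processed transcript at the start of the gene, had an exon value of 38.0 in labeled and 6.4 in unlabeled RNA. With it included, Tfcp2l1 had 100.8 and 212.9, 2.11-fold lower in labeled RNA. A non-coding transcript of Esrrb, Esrrb-205, had 23.1 and 27.4. Genes on the opposite strand overlap Pou5f1 (Gm19553, at 53.9 and 56.5) and Tbx3 (Tbx3os1, at 7.96 and 18.3), and Tfcp2l1 holds Gm28882 on the opposite strand (15.5 and 12.2) and Gm23497 on its own (24.1 and 19.2). The sources used here do not say whether strand was used in counting, so reads of these pairs may not have been separated. Processed pseudogenes share 822 bases at 90.02% identity with Klf5 (Gm6007) and 266 bases at 98.1% with Zfp42 (Zfp42-ps1), and neither has a value in the table. Transcripts of Nanog share at least 150 bases at 90% identity or more with transcripts of 391 other genes, and those of Tfcp2l1 with 14, so part of their reads may have been divided with these.

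The sequences of the members were set beside their ratios as a description. The transcript of Klf2 is poor in uridine, the base at which 4sU is built in, with 19.4% (percentile 11.1 among coding transcripts, whose median is 23.7%) and 61.6% GC. Tfcp2l1-201 had 28.6% uridine over 9269 bases and Nanog-202 27.9% over 2011 bases. Other members did not follow that order, since Klf4-201, with a low exon ratio, had 21.0% uridine and Zfp42-201, with a high one, 24.0%. Across 33401 coding transcripts Spearman's rho of the log2 exon ratio was −0.06 with the uridine percentage and −0.22 with both the number of uridines and the length. These correlations are across transcripts, which share genes and libraries and are not independent. Klf2 also has little intron to measure, 777 bases in all.

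AU-rich elements around the pentamer ATTTA in 3′ UTRs are known from short-lived mRNAs. The pentamer, searched on the sense strand, was compared in the last 300 bases of 3′ UTRs at least that long, where 1 of 9 leading transcripts held it, Klf4-201, against 44.4% of 19569 coding transcripts. Over whole 3′ UTRs, whose lengths run from 529 bases in Zfp42-201 to 7734 in Tfcp2l1-201 and which were not compared with other genes, it occurred 7 times in Tfcp2l1-201, 4 times in Klf5-201, 3 times in Nanog-202 and not in Zfp42-201. The longer TTATTTAT, which contains ATTTA, occurred in Nanog-202 and Klf5-201, in both further than 300 bases from the end, and the last 300 bases held it in 4.10% of coding transcripts but in none of these 9. The sites below, 29 bases each with ATTTA in capitals, are from Nanog-202, where 2 pentamers overlap, from Klf2-201, the transcript with the highest exon ratio, and from Klf4-201, whose site lies in the last 300 bases.
Nanog-202: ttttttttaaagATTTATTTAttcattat
Klf2-201: aaacagactgctATTTAttggaccttagg
Klf4-201: tatgtaatataaATTTAagcaaacttcta

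The model of the study turns both ratios into a processing rate and a degradation rate, here given as half-lives. Above a line in the ratio plane it has 1 solution, and below it 2 or none. Of the 21 transcripts that met its condition, 5 had 1 solution, 5 had 2 and 11 had none. For the 11, among them all transcripts of Nanog, Pou5f1 and Klf5, the value used was the closest point when the study's equations are fitted in 1 variable. A fit of both variables came closer to their ratios and gave other half-lives, which are given beside them below. Neither fit met the measured ratios. The distance over the natural logs of both ratios ran from 0.467 to 1.89 in the fit of 1 variable. With both variables fitted it was 1.54 in Pou5f1-202, 0.958 in Nanog-202 and 0.365 in Klf5-201. The half-lives of the 11 thus belong to model ratios that differ from the measured ones. For the leading transcripts of 9 genes the degradation half-life had a median of 16 min and ran from 6.12 min in Zfp42 and 6.77 min in Tbx3 to 51.9 min in Esrrb and 58.3 min in Pou5f1. With both variables fitted, Pou5f1 had 5.92 min, Nanog 4.38 min and Klf5 5.17 min, so their place in this order rests on the choice of fit. That of Pou5f1 also rests on the transcript, since Pou5f1-202 is incomplete at the 3′ end. With the fit of 1 variable the full-length Pou5f1-201 had 33.6 min and the gene sum of Pou5f1 37.0 min. Between the ends lay Prdm14 at 10.1, Klf5 at 15.0, Tfcp2l1 at 16, Nanog at 31.2 and Klf4 at 43.5 min. Processing half-times ran from 2.16 min in Klf5 to 5.39 min in Esrrb. Klf2 has none, because its unlabeled introns were listed at 0.

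These half-lives carry no error and moved widely with the settings. In Klf4 they spanned 0.717 to 350.8 min, since the other solution of the model gave the lower value and subtraction of RNA carried over into the labeled pool the higher one. In Tfcp2l1 they spanned 1.21 to 291.8 min, in Esrrb 51.9 to 677.9 min and in Tbx3 1.80 to 81.2 min. The genes without a solution spanned 5.17 to 141.1 min (Klf5), 5.92 to 58.3 min (Pou5f1) and 4.38 to 41.0 min (Nanog). The narrowest spans, in Prdm14 (10.1 to 44.1 min) and Zfp42 (6.12 to 29.8 min), were 4.37-fold and 4.87-fold. Read as total RNA, which one field of the labels would allow, the second library gave a median of 81.2 min. Zfp42 was the lowest of the 9 as computed here, with that reading and with gene sums, but in 3 other settings it was not. With leakage subtracted Klf5 was lower (8.97 min beside 9.68 min), with both variables fitted Nanog, Klf5 and Pou5f1 were, and with the other of 2 solutions Klf4, Tfcp2l1 and Tbx3 were. The order of the genes by half-life thus changed with the setting.

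**Figure D4:**
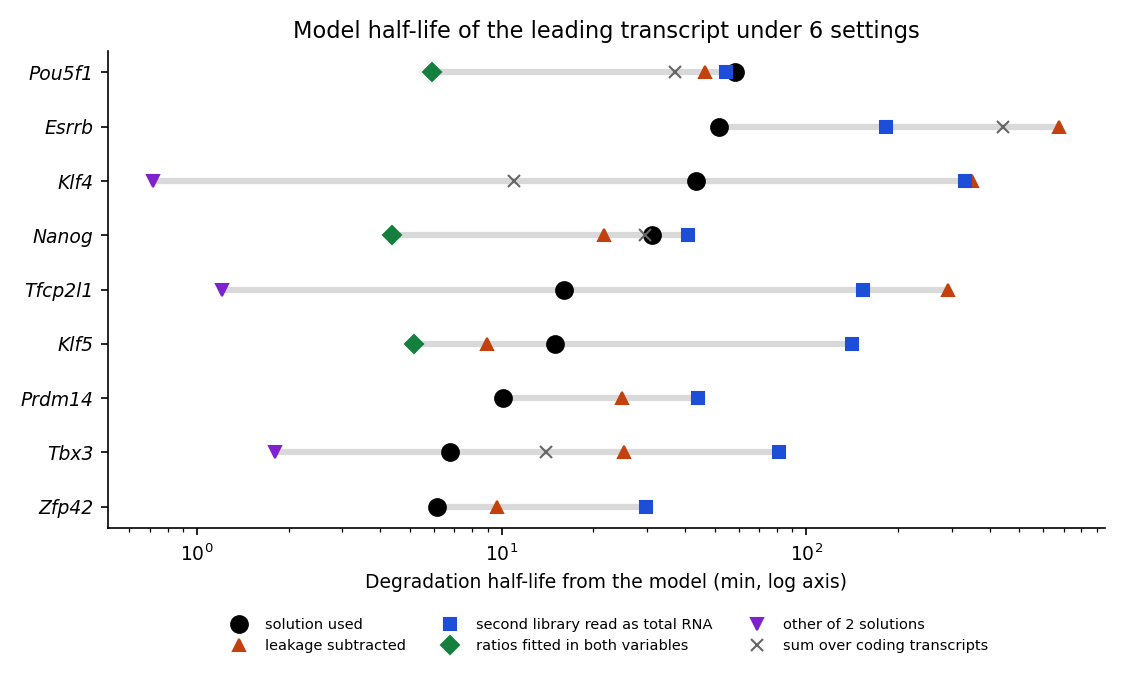
Model degradation half-life of the leading transcript of 9 genes, in min on a log axis, as computed with the solution used (black circles) and under 5 other settings; grey bars join the lowest and highest value of a gene and are not errors. The bar of Klf4 runs from 0.717 to 350.8 min and that of Prdm14, the shortest, from 10.1 to 44.1 min.

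Other genes of pluripotency were compared by exon sums per gene. Of 24 further pluripotency genes, 12 were at least 2-fold lower in labeled RNA (22.7% of coding genes) and 1 at least 2-fold higher (17.4%), with a median log2 ratio of −0.95 beside −0.88 for the 10 factors and −0.26 for all 14118 coding genes. Rescaled so that the exon rows of both libraries have the same total, which raises each log2 ratio by 0.15, 10 were at least 2-fold lower (17.8% of coding genes) and 3 at least 2-fold higher (19.8%). Relative to the median of all coding genes the counts were 8 (14.8%) and 3 (21.9%). Dppa5a, an RNA-binding protein of early embryos, was the 1 that was higher, with 3263 in labeled and 1235 in unlabeled RNA, and Dppa3, a maternal factor that guards DNA methylation, came close with 1389 and 703. Sox2, the partner of Pou5f1, had 154.0 and 344.7, a ratio like that of Nanog, and Lin28a, which blocks maturation of let-7 microRNAs, had 306.5 and 1317. Of 10 genes of the primed or formative state, 5 were at least 2-fold lower (22.7% of coding genes) and 1, Fgf5, higher (17.4%), though at the low levels of 5.31 and 2.63. Their median was −1.09, so the medians of all 3 pluripotency lists lay below that of all coding genes. The lists were not matched in level to other genes. Over all coding transcripts the median was −0.38 with a mean exon value above 1 and −0.53 with one above 10.

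Lists of housekeeping and fast-response genes were set beside these. The 15 core glycolysis enzymes had a median of −0.35, near that of all coding genes, with 1, Pfkm, at least 2-fold lower and 0 at least 2-fold higher (22.7% and 17.4% of coding genes), and a median labeled intron to exon ratio of 0.124 beside 0.417 for the factors. The 13 immediate early genes that passed the minimum had a median of 0.03, with 3 at least 2-fold lower and 2 at least 2-fold higher, Fos and Fosl2, both with mean exon values under 2. These shares, 23.1% and 15.4%, were near those of all coding genes. By transcripts their median was −0.65, and 9 of 23 were at least 2-fold lower, or 39.1%, against 26.5% of coding transcripts. This is about the share among the transcripts of the 10 factors. Transcripts of a gene are not independent, and Myc has 8 and Egr2 7 coding transcripts in the table, so this likeness may rest on few genes. Klf2 and Zfp42 lay above the highest of the glycolysis enzymes, Aldoc, at 0.35. Among the genes most like the centre of the 10 factors in exon ratio and both intron to exon ratios, of 9816 coding genes with a mean exon value of at least 10, were Haus2, Cgnl1, Prps1l3 and Nup133. Haus2 had exon values of 151.0 and 296.3 and intron values of 60.2 and 6.89. These 9 factors themselves lay far apart on these measures: 118 other genes were nearer to the centre than Klf4, the closest of them, and 5866 were nearer than Zfp42.

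**Figure D5:**
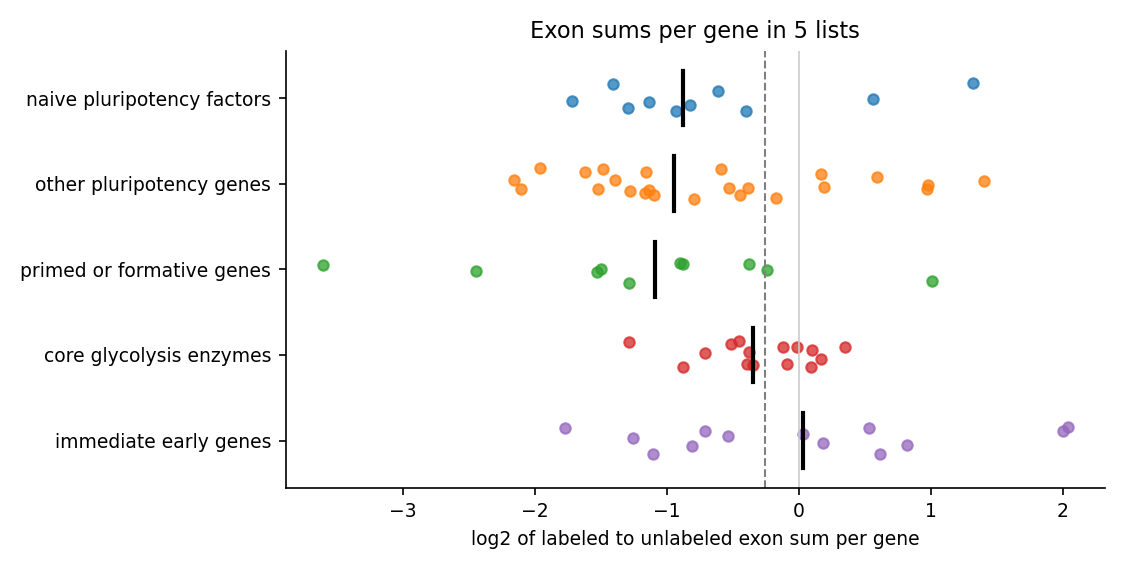
Log2 of the labeled to unlabeled exon sum per gene for the 10 naive pluripotency factors and 4 comparison lists; points are genes with a mean exon value above 1, black bars are list medians and the dashed line is the median of all coding genes, −0.26. The medians of the pluripotency lists lie between −1.09 and −0.88, that of glycolysis at −0.35 and that of the immediate early genes at 0.03.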

How the data were processed

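Labeled and unlabeled RNA of 1 culture condition were each measured in 1 library. Per the submitters' processing notes and the study's methods, the authors removed reads of ribosomal RNA, aligned the rest with STAR 2.5.0 to exonic and intronic sequences (mm10/GRCm38) and quantified them with RSEM. The deposited values, called TPM by the authors, sum in each library to 10 times a TPM total and were therefore treated as a score of relative abundance, not as counts or TPM, and thresholds planned in TPM were applied to this score. Gene names, types and coordinates came from GENCODE M21, which held 90.9% of the transcripts with an exon value and 98.1% of those with an intron value, where the study used Ensembl. Log2 ratios were taken without a pseudocount, for transcripts with a mean exon value above 1 and values above 0, and a difference was called at 2-fold. Rates followed the equations of the study with 10 min as the labeling time. Where 2 solutions existed, the one nearest the median of the 7053 transcripts with 1 solution was used. The solver was tested on simulated data. Alternatives were pseudocounts of 0.1 and 1, other minimums, leading transcripts or gene sums, rescaling or centring of the exon values, leakage (0.139 times the unlabeled value subtracted, a factor estimated from these data), and other readings of the model. The named genes are the members, the lists and the nearest genes, of which 1 is not reported here, and members and lists were chosen with earlier results of these data known. Stretches shared with other genes were sought with BLAST 2.17.0. Scripts ran under Python 3.11.15, with scipy 1.17.1, numpy 2.4.6 and pandas 2.3.3, and figures were drawn with matplotlib 3.10.9.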

Additional observations from a re-analysis of the deposited data

How the results depend on the processing

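With 1 library per pool, a value counts as moved here where it changed by more than 1.5 times or changed sign. Of the 54 recomputed summary values (medians and counts over members or lists), 44 stayed within this limit and 10 moved. The 44 include the settings with other minimums: none, a mean exon value above 10, or exon values above 1 in each library. Every member transcript passes these, so the member values could not change there. Centring on the median of all coding transcripts gave 2 instead of 1 member transcripts at least 2-fold higher in labeled RNA. Counts of transcripts that met the model's condition were 21 of 23, and 9 of 9 both with 1 leading transcript per gene and with gene sums, by construction from fewer items. Other pluripotency genes at least 2-fold higher numbered 1, but 3 after rescaling of the exon rows, 3 after centring and 2 with leading transcripts. The median half-life of 16 min became 25.2 min with leakage subtracted, 81.2 min with the second library read as total RNA, 6.77 min with both variables fitted and 10.1 min with the other of 2 solutions. Of the 45 recomputed half-lives of single genes, 24 moved. Most of the 21 that stayed could not change, because the setting did not apply to the gene. This was so for gene sums with 1 coding transcript, for the other solution where there is no second, and for the fit of both variables where a solution exists. Member transcripts at least 2-fold lower numbered 10, but 17 with leakage subtracted and 3 after centring. No paired analysis was possible because each pool has 1 library, and for the same reason no replicate could be left out. Depth, and with it the counting error of the low intron values, is unknown. Introns listed at 0 leave Klf2 without a half-life, and whether these are failed estimates was not tested.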

Other observations

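Introns of a few other pluripotency genes, chosen here after their values were seen, did not follow those of the 10 factors. Sall4, a zinc finger partner of Pou5f1, had an intron value of 157.3 in labeled and 476.4 in unlabeled RNA, so its intron RNA was relatively lower in the labeled pool, with exon values of 548.1 and 2139. Jarid2, a cofactor of the Polycomb complex PRC2, had intron values of 732.4 and 664.3, and Tdgf1, a co-receptor for Nodal, 313.8 and 267.8. At the other end stood Otx2, a homeodomain factor of the formative state, with introns at 107.8 in labeled and 3.66 in unlabeled RNA and exons at 613.0 and 724.2. Each is a single value per pool, summed over the coding transcripts of the gene, and no cause was tested.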
